A study of Mus musculus with 76 samples.

Results

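Cybb, Cyba, Ncf1, Ncf4 and Rac2 encode subunits of NOX2, the NADPH oxidase of phagocytes. These 5 genes were found by symbol in the gene metadata and joined to the counts by gene ID, out of 55536 genes in the table, and all 5 passed the filter on low counts in every comparison. RNA was measured in 38 whole subcutaneous flank tumors of Balb/c mice, with 2 technical libraries per tumor, by HT3DGE, a pooled 3′ digital gene expression method in which only the 3′ end of a transcript is read. CT26 is a mouse colorectal carcinoma line and 4T1 a mouse breast carcinoma line. Every tumor, controls included, was injected with 100 µg alum (aluminum hydroxide particles) on day 6 and harvested on day 8, in the days given by the labels. In the extracellular catalase (EC CAT) groups, 20 µg of CAT-ABP, a recombinant catalase fused to an alum-binding peptide, was injected on the alum.

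CAT-ABP + alum was given to 6 CT26, 6 4T1 and 5 4T1-CAT tumors. Alum without CAT-ABP was given to 5 CT26, 5 4T1, 5 4T1-CAT and 6 4T1-control tumors. 4T1-CAT cells carry catalase retained in the cytoplasm together with GFP (intracellular catalase, IC CAT), and 4T1-control cells carry GFP alone. Both transgenes are doxycycline (DOX)-inducible, were delivered by lentivirus and were sorted on GFP, and both lines were given a DOX diet from day 4, while mice with CT26 or 4T1 tumors were not. The transgene is carried by the tumor cells only, so host phagocytes in these tumors were not engineered. The mouse Cat gene in the counts is not the transgene, and catalase expression could not be checked from it. The labels name biological replicates, but not whether tumors shared a cage or a day.

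NOX2 passes electrons from NADPH across a membrane to oxygen and so makes superoxide, which is converted to hydrogen peroxide, the substrate of catalase. Its membrane core is a pair of proteins encoded by Cybb (the catalytic subunit) and Cyba (its partner, which stabilises it). The cytosolic organiser encoded by Ncf1 and the regulatory subunit encoded by Ncf4 join that core on activation, together with the small GTPase encoded by Rac2, which is made mainly in blood cells. The complex is known for the respiratory burst of neutrophils, monocytes and macrophages, and loss of a subunit causes chronic granulomatous disease.

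To show where transcription of these genes begins, the 250 bases before the RefSeq start are printed for the 3 of 5 genes with an entry in the RefSeq promoter table (GRCm38.p6), each read 5′ to 3′ on the gene's strand. Ncf4 and Rac2 had no entry. Capitals mark matches, on either strand, to GAAA followed by any 2 bases and a second GAAA, the letters of an interferon-stimulated response element (ISRE), which 2.98% of 32851 promoter windows of this length hold.
Cybb (chrX:9469325-9469574, minus strand): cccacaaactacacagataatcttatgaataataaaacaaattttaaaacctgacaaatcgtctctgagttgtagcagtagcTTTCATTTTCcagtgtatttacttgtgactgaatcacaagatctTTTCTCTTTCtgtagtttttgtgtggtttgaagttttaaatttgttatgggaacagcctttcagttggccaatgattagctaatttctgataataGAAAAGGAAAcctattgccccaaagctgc
Cyba (chr8:122432941-122433190, minus strand): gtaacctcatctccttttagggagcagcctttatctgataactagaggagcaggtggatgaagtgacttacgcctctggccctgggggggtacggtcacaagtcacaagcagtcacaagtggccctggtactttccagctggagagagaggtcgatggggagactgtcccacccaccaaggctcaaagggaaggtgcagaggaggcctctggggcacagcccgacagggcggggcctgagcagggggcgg
Ncf1 (chr5:134229626-134229875, minus strand): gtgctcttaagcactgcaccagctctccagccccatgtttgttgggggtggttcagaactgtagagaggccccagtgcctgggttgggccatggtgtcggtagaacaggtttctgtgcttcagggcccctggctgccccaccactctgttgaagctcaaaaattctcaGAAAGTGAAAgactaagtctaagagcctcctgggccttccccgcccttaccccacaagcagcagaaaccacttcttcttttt
The Cybb window held 3 ISRE-like matches, at bases -168 to -159, -124 to -115 and -29 to -20 before the start. The Ncf1 window held 1, at bases -82 to -73. The Cyba window held none. CCAAT or its reverse complement ATTGG (33.8% of windows) was found once, in Cybb at -56 to -52, and GAGGAA or TTCCTC, a core bound by PU.1 (23.3% of windows), in none of the 3. These are matches of letters in a window and no test of binding. The 5 genes lie apart: Cybb on chrX:9435252-9487771, Cyba on chr8:122424776-122432930, Ncf1 on chr5:134220053-134229625, and Ncf4 (chr15:78244801-78262580) and Rac2 (chr15:78559167-78572783) on the same chromosome (GRCm38, GENCODE M21). In that annotation a longer Cybb transcript begins upstream of the printed window. Ncf1 overlaps Gtf2ird2 and Cyba overlaps Gm20388 on the opposite strand, and these overlapping genes had 591 and 1587 counts over all tumors, against 2120 for Ncf1 and 8880 for Cyba.

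Tumors held between 493044 and 9077549 counts (median 4827388), and 7 of 76 libraries held less than 0.25 of the median library total of 2075009. The counts of a tumor ranged from 26 to 2262 for Cybb, from 13 to 601 for Cyba, from 1 to 214 for Ncf1, from 46 to 997 for Ncf4 and from 19 to 1168 for Rac2. Levels are given as CPM (counts relative to the library size, which was scaled by TMM, the trimmed mean of M-values) and are compared for 1 gene between tumors and never between genes. The index tags in the sample metadata split the tumors into 2 sets, named pool A and pool B here; the labels name no sequencing pool, and that these sets were sequenced as pools is inferred from the tags. Pool A holds all CT26 tumors, all 4T1 tumors with CAT-ABP + alum and 2 of the 5 4T1 tumors with alum, and pool B holds the other 3 and every tumor of the engineered lines. The technical libraries of a tumor disagreed for Cyba in pool B: log2 CPM was higher in library 1 than in library 2 in 19 of 19 tumors, by 1.23 ± 0.44 (SD), which placed Cyba at the 99.8th percentile of 14646 genes. In pool A the Cyba difference was 0.09 ± 0.54 (n = 19). Ncf1 differed by 0.70 ± 0.78 in pool B (98.0th percentile) and by 0.30 ± 0.48 in pool A, while Cybb, Ncf4 and Rac2 lay between the 38.6th and 64.4th percentiles in both pools. The cause of the disagreement was not tested.

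**Figure D1:**
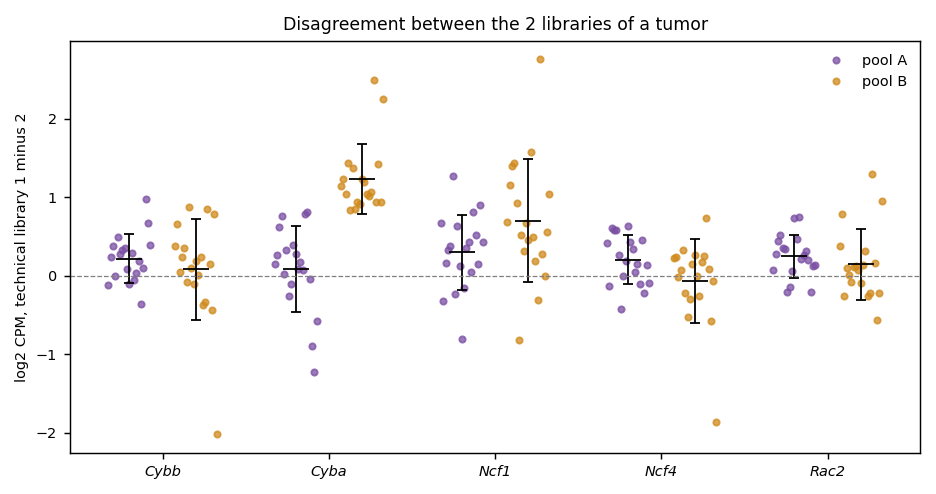
Difference in log2 CPM between technical library 1 and library 2 of each tumor (y axis) for the 5 genes (x axis), by pool; points are tumors and bars the mean ± SD (n = 19 per pool). All 19 Cyba points of pool B lie above 0, with a mean of 1.23, whereas the Rac2 means are 0.25 in pool A and 0.15 in pool B.

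Levels of Cybb, Cyba, Ncf1 and Rac2 differed somewhere among the 7 groups, and Ncf4 was not found to (edgeR quasi-likelihood F test with Benjamini-Hochberg adjustment: 4 of 5 genes called at an adjusted p of 0.05 or less, where 54.7% of 14646 genes were called; adjusted p for Ncf4 0.264). The count fell to 3 with library 1 alone and with the pool as a block. Each of the 4 called genes had its highest mean in CT26 tumors. For Cybb, Cyba and Rac2 the step in the order of group means from the lower CT26 group to the highest 4T1-derived group was 0.94, 0.57 and 0.87 log2 CPM, larger than any other step of the same gene. No pair of neighbouring groups in any of the 5 orders passed an exact two-sided permutation test adjusted over the 30 neighbour pairs, the smallest adjusted p being 0.13 for Rac2. For Ncf4 the group means ran from 94.0 to 125.6 CPM, with a 4T1-derived group at both ends.

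**Figure D2:**
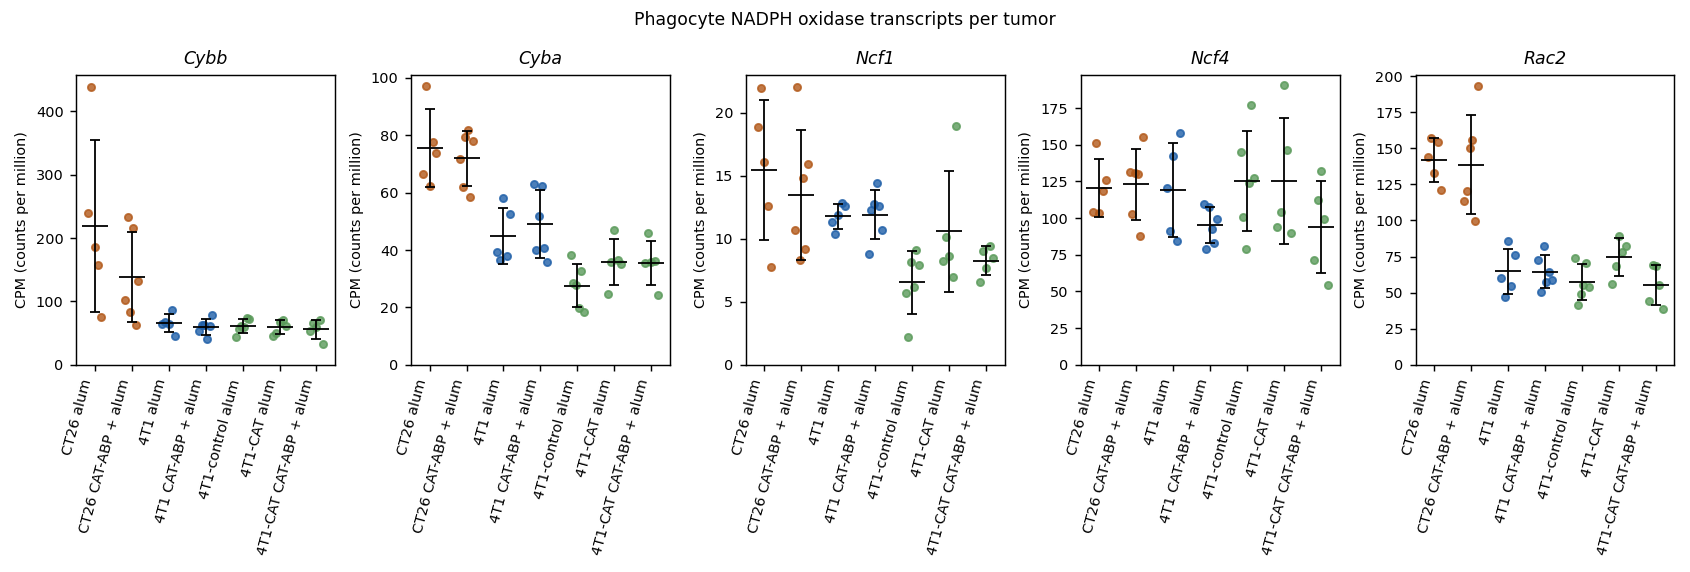
CPM of each subunit gene (y axis, linear from 0) in every tumor, by group (x axis); points are tumors, and black bars the mean ± SD. Rac2 lies between 99.5 and 193 CPM in CT26 tumors and between 38.7 and 89.2 CPM in 4T1-derived tumors, and Ncf4 overlaps between all groups.

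To ask how the 2 tumor models differ, 4T1 was compared with CT26 under alum and, in other tumors, under CAT-ABP + alum. Cybb, Cyba and Rac2 were lower in 4T1 in both comparisons, 3 of 5 genes in each, where 42.4% of 12817 genes were called under alum (21.3% as lower and 21.1% as higher) and 45.5% of 13016 genes under CAT-ABP + alum (21.8% as lower and 23.7% as higher). Ncf1 and Ncf4 passed the threshold in neither. In whole tumors, fewer cells that express these genes and less transcript per cell cannot be told apart. Which cells the transcripts came from, phagocytes or others, was not measured.

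Cybb, the catalytic subunit, was at 239, 438, 187, 158 and 75.1 CPM in the CT26 tumors with alum and at 64.4, 68.0, 64.2, 85.7 and 45.3 CPM in the 4T1 tumors with alum. 1 CT26 tumor lay within the 4T1 range and the other 4 lay above it. The edgeR log2 fold change was -1.73 (SE 0.34, adjusted p 0.00081). Under CAT-ABP + alum the lowest, median and highest values were 62.7, 117 and 233 CPM in CT26 and 40.8, 61.7 and 79.1 CPM in 4T1, with 5 of 6 CT26 tumors above the highest 4T1 tumor. That difference was -1.16 (SE 0.27, adjusted p 0.0019). The CT26 tumors were spread more widely than the 4T1 tumors: the CV was 61.9% and 51.3% in the CT26 groups with alum and with CAT-ABP + alum, and 18.1% to 26.6% in the 5 4T1-derived groups.

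Cyba, the membrane partner, was at 66.5, 97.2, 62.5, 77.6 and 73.7 CPM in CT26 with alum and at 39.4, 36.6, 58.2, 37.8 and 52.4 CPM in 4T1 with alum. The 2 groups did not overlap, as was true of 14.3% of genes in this direction, and the log2 fold change was -0.74 (SE 0.17, adjusted p 0.0022). Under CAT-ABP + alum Cyba ranged from 58.6 to 81.9 CPM (median 74.9) in CT26 and from 36.0 to 62.9 CPM (median 46.3) in 4T1, and 4 of 6 tumors of each group lay outside the range of the other. The log2 fold change was -0.54 (SE 0.16, adjusted p 0.012).

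Rac2, the GTPase of the complex, separated the models in every tumor. CT26 tumors with alum were at 144, 157, 133, 155 and 121 CPM, and 4T1 tumors with alum at 60.3, 47.0, 85.4, 54.7 and 76.3 CPM. The log2 fold change was -1.13 (SE 0.17, adjusted p 5.5e-05). Under CAT-ABP + alum the ranges were 99.5 to 193 CPM (median 135) and 50.6 to 82.4 CPM (median 61.7), again without overlap (11.5% of genes in this direction), and the log2 fold change was -1.07 (SE 0.17, adjusted p 5.9e-05). In geometric means CT26 was 2.23-fold (95% CI 1.69 to 2.93, from the exact permutation test) and 2.12-fold (1.61 to 2.80) higher.

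Ncf1, the organiser, was at 18.8, 22.0, 16.1, 12.6 and 7.73 CPM in CT26 with alum and between 10.4 and 12.8 CPM in 4T1 with alum. The CT26 tumors lay on both sides of the 4T1 tumors, and the log2 fold changes were -0.37 (SE 0.24, adjusted p 0.226) and, under CAT-ABP + alum, -0.20 (SE 0.23, adjusted p 0.515). With library 2 alone the difference under alum was -1.04 (adjusted p 0.027), and without CT26 alum replicate 5 it was -0.53 (adjusted p 0.034). Ncf4, the regulatory subunit, was at 104, 151, 103, 118 and 126 CPM in CT26 and 120, 91.1, 143, 84.1 and 158 CPM in 4T1 under alum, in overlapping ranges, with a log2 fold change of -0.01 (SE 0.18, adjusted p 0.958). Under CAT-ABP + alum it was -0.33 (SE 0.15, adjusted p 0.079), a value that passed the threshold with DESeq2, with the replicate block, with library 1 alone and without each of 4 tumors in turn (CT26 replicates 2 and 5 and 4T1 replicates 1 and 3 with CAT-ABP + alum, adjusted p 0.024 to 0.048). The 95% intervals of the differences in mean log2 CPM were -0.52 to 0.44 and -0.68 to -0.04 for Ncf4, and -0.84 to 0.35 and -0.66 to 0.41 for Ncf1.

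The subunits thus did not differ by the same amount. Subunits were set against each other by their log2 ratio, 10 pairs in each of the 2 comparisons (20 tests, chosen after the values were seen). By an exact two-sided permutation test adjusted over the 20 tests, 6 passed under alum and 4 under CAT-ABP + alum. How many of all gene pairs would pass was not computed, so these counts cannot be read as a trait of the subunits. The log2 ratio of Ncf4 to Rac2 was higher in 4T1 by 1.11 (95% CI 0.79 to 1.43) under alum and by 0.73 (0.51 to 0.94) under CAT-ABP + alum. The log2 ratio of Cybb to Ncf1 differed by -1.24 (95% CI -1.82 to -0.75) and -0.96 (-1.51 to -0.44). Each of these values had an exact permutation p of 0.019 after adjustment, and the ratios of Cyba and of Ncf1 to Rac2 passed in both comparisons as well.

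The comparison under CAT-ABP + alum lies wholly in pool A. Under alum, the comparison restricted to pool A (2 4T1 and 5 CT26 tumors, an alternative added after seeing the data) gave log2 fold changes of -1.71 for Cybb, -0.97 for Cyba and -1.39 for Rac2 (adjusted p 0.035, 0.0064 and 0.00061), and again 3 of 5 genes were called. The 3 genes were called also with library 1 alone and with library 2 alone. Over all alternatives the number of genes called ranged from 2849 to 6362 under alum and from 3559 to 7054 under CAT-ABP + alum.

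**Figure D3:**
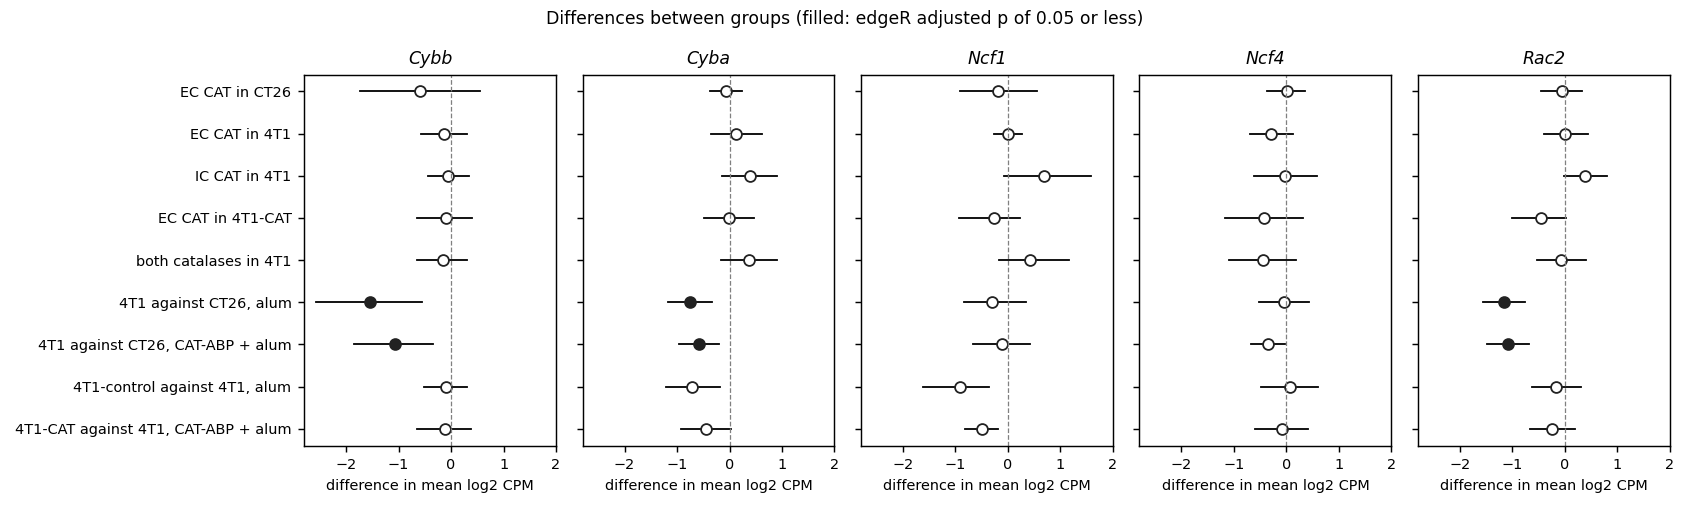
Differences in mean log2 CPM (x axis) for each gene (panels) and comparison (rows), with 95% intervals from exact permutation tests as lines; filled points have an edgeR adjusted p of 0.05 or less. EC CAT is CAT-ABP + alum against alum, IC CAT is 4T1-CAT against 4T1-control under alum, and both catalases is 4T1-CAT with CAT-ABP + alum against 4T1-control with alum; the filled points are Cybb, Cyba and Rac2 in the 2 comparisons of 4T1 with CT26.

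To ask whether RNA levels of the 5 genes differed with a tumor-localized catalase, the groups with catalase were compared with their controls. None of the 5 genes was called in CT26 with EC CAT, in 4T1 with EC CAT, in 4T1 with IC CAT, in 4T1-CAT with EC CAT or with both catalases. By edgeR 0.0% of genes were called in the 4 comparisons with 1 catalase and 0.0235% of 12781 genes with both, and DESeq2 also called 0 of 5 genes in each, with no adjusted p for Ncf1 in 4T1-CAT with EC CAT. An unadjusted p under 0.05 was reached by 1 of the 5 genes in 2 of the comparisons, Rac2 in both, and by 0 in the other 3. The share of all genes at that level was 2.42%, 2.88%, 5.08%, 15.3% and 16.9% in the order named above.

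In CT26 with EC CAT, Cybb had a mean of 138 ± 70.9 CPM (SD, n = 6) against 219 ± 136 CPM (n = 5) under alum. The ranges overlapped, with 2 alum tumors above the highest treated tumor and 1 treated tumor below the lowest alum tumor, and the log2 fold change was -0.67 (SE 0.40, adjusted p 0.9997), or -0.26 without CT26 alum replicate 2. The 95% interval of the difference in mean log2 CPM reached from -1.74 to 0.54, so that a fall to 0.30-fold and a rise to 1.46-fold of the control level were both inside it. For Cyba, Ncf4 and Rac2 in the same tumors the intervals were narrower and lay within -0.45 and 0.36, and that of Ncf1 was -0.92 to 0.56.

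In 4T1 with EC CAT, Ncf4 had the largest difference. Treated tumors ranged from 79.2 to 109 CPM (median 96.0) and the alum tumors named above from 84.1 to 158 CPM, so that 3 of 5 alum tumors exceeded every treated tumor. The log2 fold change was -0.34 (SE 0.17, adjusted p 0.999), and it was -0.15 within pool A, where 2 alum tumors remain, and -0.21 without 4T1 alum replicate 5. For Cybb, Cyba, Ncf1 and Rac2 the log2 fold changes lay between -0.12 and 0.08, with intervals of the difference in mean log2 CPM within -0.56 and 0.61. Under the other processing settings they ranged from -0.19 to 0.09 for Cybb and from 0.08 to 0.34 for Cyba. The ranges were -0.13 to 0.35 for Ncf1 and -0.08 to 0.27 for Rac2, whose value within pool A was 0.27.

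With IC CAT, 4T1-CAT tumors with alum were compared with 4T1-control tumors, all in pool B. Rac2 was at 56.0, 68.1, 89.2, 78.3 and 82.4 CPM in 4T1-CAT and between 41.7 and 73.9 CPM (median 54.7) in 4T1-control. 3 of 5 4T1-CAT tumors lay above the control range, and the log2 fold change was 0.35 (SE 0.16, unadjusted p 0.040, adjusted p 0.956). Ncf1 was at 8.21, 10.2, 8.61, 6.99 and 18.9 CPM against 2.19 to 9.09 CPM (log2 fold change 0.53, SE 0.29), and Cyba at 24.6, 35.9, 47.1, 36.4 and 35.1 CPM against 18.4 to 38.3 CPM (0.40, SE 0.21), neither past the threshold. From library 1 and library 2 alone these values were 0.62 and 0.34 for Ncf1 and 0.049 and 0.28 for Cyba. The highest Ncf1 value belonged to the 4T1-CAT alum tumor labelled replicate 5, without which the Ncf1 log2 fold change was 0.24.

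When EC CAT was added to 4T1-CAT, Rac2 was at 44.2, 69.3, 68.7, 55.2 and 38.7 CPM, a log2 fold change of -0.44 against 4T1-CAT with alum (SE 0.18, unadjusted p 0.026, adjusted p 0.269). 3 tumors of each group lay outside the range of the other. Ncf4 was at 71.4, 112, 132, 99.4 and 54.6 CPM against 94.0, 104, 191, 146 and 89.9 CPM (-0.41, SE 0.24, adjusted p 0.422, and -0.22 without 4T1-CAT alum replicate 3 or -0.26 without 4T1-CAT CAT-ABP + alum replicate 5), and Cybb and Cyba differed by -0.06 (SE 0.19) and -0.0043 (SE 0.18). From library 1 and library 2 alone the Cyba values were -0.32 and -0.42. These 2 comparisons share the 4T1-CAT alum tumors. With both catalases against 4T1-control, the Rac2 log2 fold change was -0.07 (SE 0.17, adjusted p 0.881). That of Cyba was 0.41 (SE 0.20, adjusted p 0.300) and that of Ncf4 -0.42 (SE 0.22, adjusted p 0.339). Ncf1 and Cybb differed by 0.22 (SE 0.22) and -0.12 (SE 0.19). The Cyba value was negative from library 1 alone and from library 2 alone. The intervals of all 5 differences in mean log2 CPM included 0. As interaction terms, the difference in the EC CAT effect between 4T1 and CT26 and between 4T1-CAT and 4T1 was called for 0 of 5 genes (0.0% of genes called in each), with 0 at an unadjusted p under 0.05 (3.59% and 8.79% of genes) and 0 called by DESeq2. The largest term was 0.55 (SE 0.46) for Cybb, 4T1 against CT26, and 0.15 without CT26 alum replicate 2.

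Marker genes of the cells that tumors hold, phagocytes included, were read for sign as well, and none was called in these catalase comparisons. With IC CAT the log2 fold change was above 0 for 7 of 7 pan-leukocyte genes (median 0.36), 9 of 10 macrophage markers (0.24), 5 of 5 monocyte markers (0.52), 6 of 6 neutrophil markers (0.66), 6 of 6 T cell markers (0.94) and 7 of 7 fibroblast markers (0.40). When EC CAT was added to 4T1-CAT it was below 0 for 9 of 11 macrophage markers (median -0.25), 6 of 6 monocyte markers (-0.26), 6 of 6 T cell markers (-0.63) and 7 of 7 fibroblast markers (-0.42). The same sign was found for 4 of 7 neutrophil markers (-0.10) and 3 of 7 pan-leukocyte genes (0.05). The median over all genes was -0.0053 and -0.00066, and both share the 4T1-CAT alum tumors. The part of these cells in the Rac2 values was not tested.

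Engineered and parental 4T1 tumors were also set side by side, a comparison that joins the transgene and GFP, the DOX diet and, for the most part, the pool. None of the 5 genes was called for 4T1-control against 4T1 under alum (0.0% of 12431 genes called). DESeq2 called 0 of the 4 to which it gave an adjusted p, which did not include Ncf1. Cyba and Ncf1 were the 2 of 5 at an unadjusted p under 0.05, where 10.5% of genes were. Ncf1 was at 11.3, 10.4, 11.9, 12.8 and 12.6 CPM in 4T1 and ranged from 2.19 to 9.09 CPM (median 7.06) in 4T1-control, on 1 to 37 counts per tumor. The 2 groups did not overlap (0.845% of genes in this direction), and the log2 fold change was -0.73 (SE 0.22, unadjusted p 0.0032, adjusted p 0.262). It was -0.74 with library 1 alone and -0.21 with library 2 alone.

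Cyba ranged from 18.4 to 38.3 CPM (median 28.2) in 4T1-control, and 5 of 6 of these tumors lay below the lowest 4T1 tumor with alum. The log2 fold change was -0.75 (SE 0.19, unadjusted p 0.0010, adjusted p 0.262), and the gene was called with no filter on low counts (adjusted p 0.0092). The sign depended on the library: the value was 0.20 with library 1 alone and -0.79 with library 2 alone. Restricted to pool B, with both libraries summed, it was -0.85 for Cyba (adjusted p 0.642) and -0.77 for Ncf1 (adjusted p 0.666). Library 1 gave the higher Cyba level in pool B. The lowest summed values, 18.4 and 19.9 CPM, were those of 4T1-control replicates 6 and 4. Their library 1 held 46233 and 466634 counts, of tumor totals of 4413738 and 4569427. The part of library 1 depth in the Cyba difference was not tested. Cybb, Ncf4 and Rac2 differed by -0.10 (SE 0.17), 0.07 (SE 0.20) and -0.16 (SE 0.17).

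In 4T1-CAT against 4T1, both with CAT-ABP + alum, each group lies in its own pool, and line and pool cannot be told apart. There 0 of 5 genes were called (0.0151% of 13235 genes called, and 0 of 5 by DESeq2), with 2 of 5 at an unadjusted p under 0.05 (4.28% of genes). Ncf1 was at 6.58, 9.06, 7.68, 9.46 and 8.48 CPM against 8.77 to 14.4 CPM (median 12.4), a log2 fold change of -0.49 (SE 0.18, adjusted p 0.973), or -0.55 and -0.50 from library 1 and library 2 alone. That of Cyba was -0.44 (SE 0.18, adjusted p 0.973), with values of -0.23 and -1.24 from library 1 and library 2 alone. Over the 5 4T1-derived groups together 0 of 5 genes were called (0.382% of 13875 genes called) and 2 had an unadjusted p under 0.05 (14.1% of genes), with Cyba (unadjusted p 0.0023, adjusted p 0.126) and Ncf1 (unadjusted p 0.0096, adjusted p 0.213) lowest, and 1 gene, Cyba, was called by DESeq2, with no filter and with library 2 alone.

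Tumors of the same group also varied together. After group means were subtracted, 4 of 10 pairs of subunits were correlated in log2 CPM over the 38 tumors (100000 permutations within groups, adjusted over the 10 pairs). The share of all gene pairs that would pass was not computed, so this count cannot be read as a trait of the subunits. Ncf4 and Rac2 gave a Pearson r of 0.79 (Spearman rho 0.81, adjusted p 1e-04 for both, from the smallest p the permutations can give), Cyba and Rac2 an r of 0.66 (rho 0.70, adjusted p 0.00025 and 0.00015), Cyba and Ncf4 an r of 0.62 (rho 0.67, adjusted p 0.0010 and 0.00017), and Cybb and Ncf1 an r of 0.54 (rho 0.55, adjusted p 0.0046 and 0.0053). For the other 6 pairs r lay between -0.01 and 0.31, and none passed. Without the 2 tumors farthest from the median of the first-named gene, the 4 values were 0.77, 0.65, 0.62 and 0.41.

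The Cybb and Ncf1 relation was read in each model apart. In the 11 CT26 tumors r was 0.93, and in the 27 4T1-derived tumors it was 0.10. The pooled value thus rests on CT26, and the difference between these values of r was not tested. Cybb was also spread more widely in the CT26 groups (CV 61.9% and 51.3%) than in the 4T1-derived groups (18.1% to 26.6%). The lowest Ncf1 count was 32 in CT26 tumors and 1 in 4T1-derived tumors. The part of spread and counts in these values of r was not tested. Ncf4 and Rac2 had an r of 0.71 in CT26 and 0.81 in 4T1-derived tumors, and Cyba and Rac2 had 0.66 and 0.67. From library 1 alone the 4 pairs gave r of 0.28 (Ncf4 and Rac2), 0.69 (Cyba and Rac2), 0.28 (Cyba and Ncf4) and 0.32 (Cybb and Ncf1), and only Cyba and Rac2 passed. From library 2 alone they gave 0.71, 0.54, 0.46 and 0.45, and all 4 passed.

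**Figure D4:**
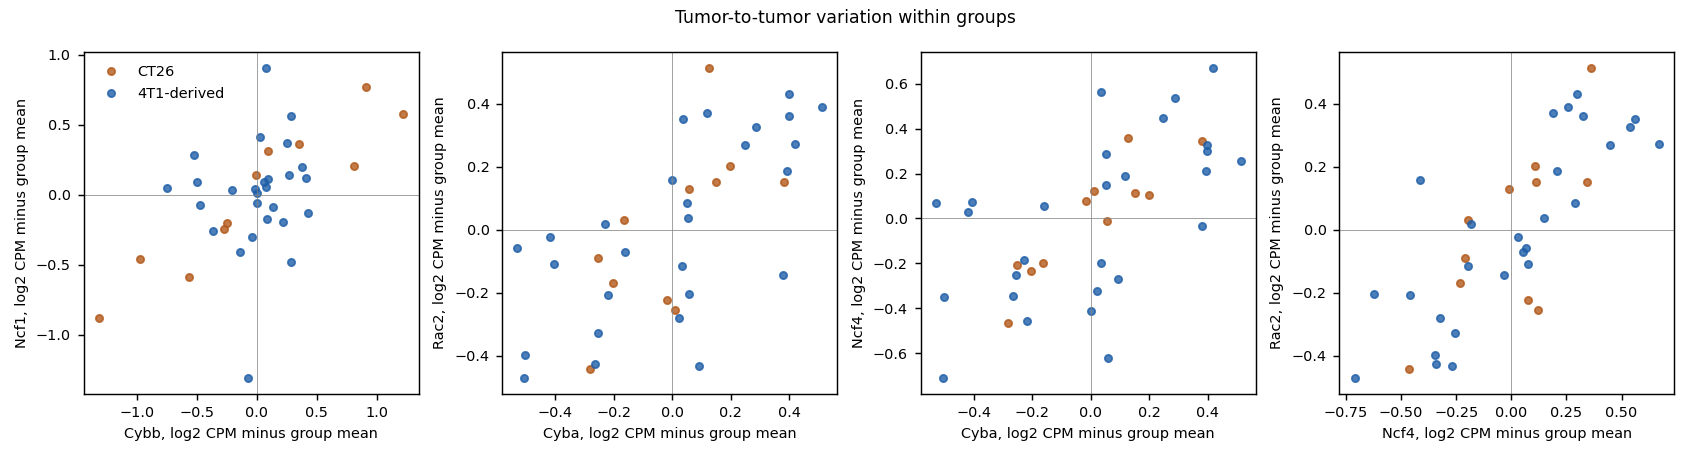
Log2 CPM minus the group mean for the 4 pairs of subunit genes that passed the test, 1 point per tumor, with CT26 and 4T1-derived tumors in separate colors. In the Cybb and Ncf1 panel the 11 CT26 points run along a line (r 0.93) and the 27 4T1-derived points do not (r 0.10), while in the Ncf4 and Rac2 panel both sets do (0.71 and 0.81).

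The genes closest to each subunit in this within-group pattern were read from 10705 genes of at least 5 CPM on average, by Pearson r over 38 tumors. For Cybb they included Mpeg1 (0.86), which encodes a pore-forming protein of macrophages, Myo1f (0.83), the interferon-regulated factor Irf1 (0.82) and the MHC class II gene H2-Ab1 (0.82). In CT26 and in 4T1-derived tumors apart, r with Cybb was 0.90 and 0.79 for Mpeg1 and 0.98 and 0.43 for Myo1f. It was 0.91 and 0.62 for Irf1 and 0.97 and 0.43 for H2-Ab1, and these differences were not tested. For Ncf1 they were Sema4a (0.88), Itgb2 (0.84), the leukocyte integrin chain, Pik3cd (0.84), Marcks (0.84) and Abcg1 (0.82). Cyba was closest to Fyb (0.85), to the adaptors Fcer1g (0.83) and Tyrobp (0.81), which carry signals from Fc and related receptors, and to Crip1 (0.80) and Npc2 (0.78). Ncf4 was closest to Ly86 (0.93), a partner of a Toll-like receptor relative, Aif1 (0.87), a macrophage calcium-binding protein, Plgrkt (0.87), Pilra (0.86) and BC028528 (0.85). Rac2 was closest to Fcer1g (0.84), Evi2a (0.84), Aif1 (0.83), Ly86 (0.83) and Sat1 (0.82). The like genes of Cyba, Ncf4 and Rac2 had shorter transcripts in the median than those of Cybb and Ncf1: the median longest coding transcript was 683, 1020 and 1134 bases against 2137 and 4048 bases. The ranges overlapped, with 516 to 3299 bases for Cyba and 1212 to 4334 bases for Cybb. The subunits did not split the same way: their own lengths were 744, 1464 and 3038 bases for Cyba, Ncf4 and Rac2, and 4752 and 2882 bases for Cybb and Ncf1. The part of transcript length in these patterns was not tested.

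Other genes of the oxidase pathway were read from lists chosen with earlier results of these data known. Of the partners and chaperones of the complex, 3 of 17 were higher and 3 lower in 4T1 under alum, and 3 of 18 higher and 4 lower under CAT-ABP + alum, with medians of -0.16 in both beside -0.02 and 0.02 for all genes. These counts are near the shares of all genes, 21.1% higher and 21.3% lower under alum and 23.7% higher and 21.8% lower under CAT-ABP + alum. Arhgdib, an inhibitor that holds small GTPases such as Rac in the cytosol, was lower by a log2 fold change of -1.85 (SE 0.24, adjusted p 1.4e-05) under alum and -2.04 (SE 0.19) under CAT-ABP + alum. Dock2 (-1.46 and -1.01) and Vav1 (-0.97 and -0.47), exchange factors that activate Rac in leukocytes, were lower as well, and Hvcn1, a proton channel that balances the charge moved by the oxidase, was lower under CAT-ABP + alum (-1.30). Vav3, another exchange factor, was higher (1.83 and 2.16), as were the Rac effector Pak1 (1.04 and 0.77) and the scaffold Sh3pxd2b (0.45 and 0.38). The part of tumor cells in these levels was not tested.

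Receptors and kinases that act upstream of the oxidase were mostly lower in 4T1: 14 of 21 were called lower and 1 higher under alum, and 14 of 22 lower and 1 higher under CAT-ABP + alum, with medians of -0.97 and -0.60, beside 21.3% and 21.8% of all genes called lower and 21.1% and 23.7% called higher. The Fc receptor gene Fcgr4 had log2 fold changes of -3.36 (SE 0.21) and -2.93 (SE 0.30), the formyl peptide receptor genes Fpr2 -3.14 and -2.63 and Fpr1 -2.42 and -1.90, and Fcgr1 -1.45 and -1.19. Pik3r5, which encodes a subunit of a phosphoinositide kinase, was lower by -1.41 and -1.09, and Itgam, an integrin chain of myeloid cells, by -1.08 and -0.96. Plcg2, a phospholipase, was the gene called higher (2.80 and 2.79). The signs of Cybb, Cyba and Rac2 were thus those of most receptor genes and not of Plcg2.

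Among transcription factors known to act on these genes, 2 of 9 were higher and 4 lower under alum, and 2 of 9 higher and 3 lower under CAT-ABP + alum, with medians of -0.62 and -0.10, beside 21.1% and 23.7% of all genes called higher and 21.3% and 21.8% called lower. Hoxa9 (-2.71 and -1.94) and Irf1 (-1.10 and -0.78) were lower in both, and Irf8 was lower under alum (-1.12). Hoxa10 (2.07 and 1.58) and Runx1 (0.96 and 1.27) were higher. Spi1, which encodes PU.1, had means of 5.1 CPM in CT26 with alum and 3.1 CPM in 4T1 with alum and was not called. Of 9 genes for other NADPH oxidases and their partners, 2 passed the filter and 0 were called, Nox3 and Duoxa2 had 0 counts, and the summed level of the list was between 5.03 and 15.4 CPM in every tumor.

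In the 5 catalase comparisons edgeR called 0 genes of these 4 lists, with 2 of 50, 0 of 48, 5 of 46, 7 of 48 and 7 of 46 at an unadjusted p under 0.05 in the order used above, beside 2.42%, 2.88%, 5.08%, 15.3% and 16.9% of all genes. DESeq2 called 1 gene in 4T1-CAT with EC CAT (Runx1) and 1 with both catalases (Elf1).

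Marker lists of the cells that tumors hold were read beside the subunits, and their counts stand beside 21.3% of all genes called lower and 21.1% higher under alum, and 21.8% and 23.7% under CAT-ABP + alum. The summed level of 7 pan-leukocyte genes, led by Lcp1, Cd52 and Cd53, was 502 to 1031 and 628 to 1368 CPM in the CT26 groups with CAT-ABP + alum and with alum, and 391 to 647 CPM over the 4T1-derived tumors. 5 of 7 were called lower in 4T1 in each comparison, and their medians were -0.94 and -0.70. Of 12 macrophage markers, led by Cd68, Mrc1 and C1qc, 3 of 11 tested were lower under alum and 5 of 11 under CAT-ABP + alum, with summed levels of 946 to 1348 and 954 to 1491 CPM in CT26 and 722 to 998 and 835 to 967 CPM in 4T1, in the same order of treatments. Marco, a scavenger receptor of some macrophages, had 2 counts over all tumors.

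For 6 monocyte markers, led by Cd14, Ccr2 and Ly6c2, 3 were lower in each comparison, and the summed levels did not overlap between the models (299 to 616 CPM in CT26 and 113 to 220 CPM in parental 4T1). Neutrophil markers went the other way in sum: 66.0 to 174 CPM in CT26 and 157 to 285 CPM in parental 4T1, with 1 of 6 tested called higher in each comparison and 1 and 2 lower. Mmp9 was the gene called higher (3.2 and 2.76), and Csf3r was lower in both (-0.97 and -0.75). The sum is led by Mmp9, which tumor and stromal cells also make, then by Cxcr2 and S100a9, and the granule gene Elane had 1 count in all. Of 7 T cell markers tested, 7 were lower in each comparison, as were 4 of 5 NK cell markers. Of 5 epithelial markers tested, 5 were higher in 4T1, with summed levels of 18.3 to 30.7 CPM in CT26 and 1504 to 2793 CPM in 4T1-derived tumors. The part of these cell types in the differences of Cybb, Cyba and Rac2 was not tested.

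**Figure D5:**
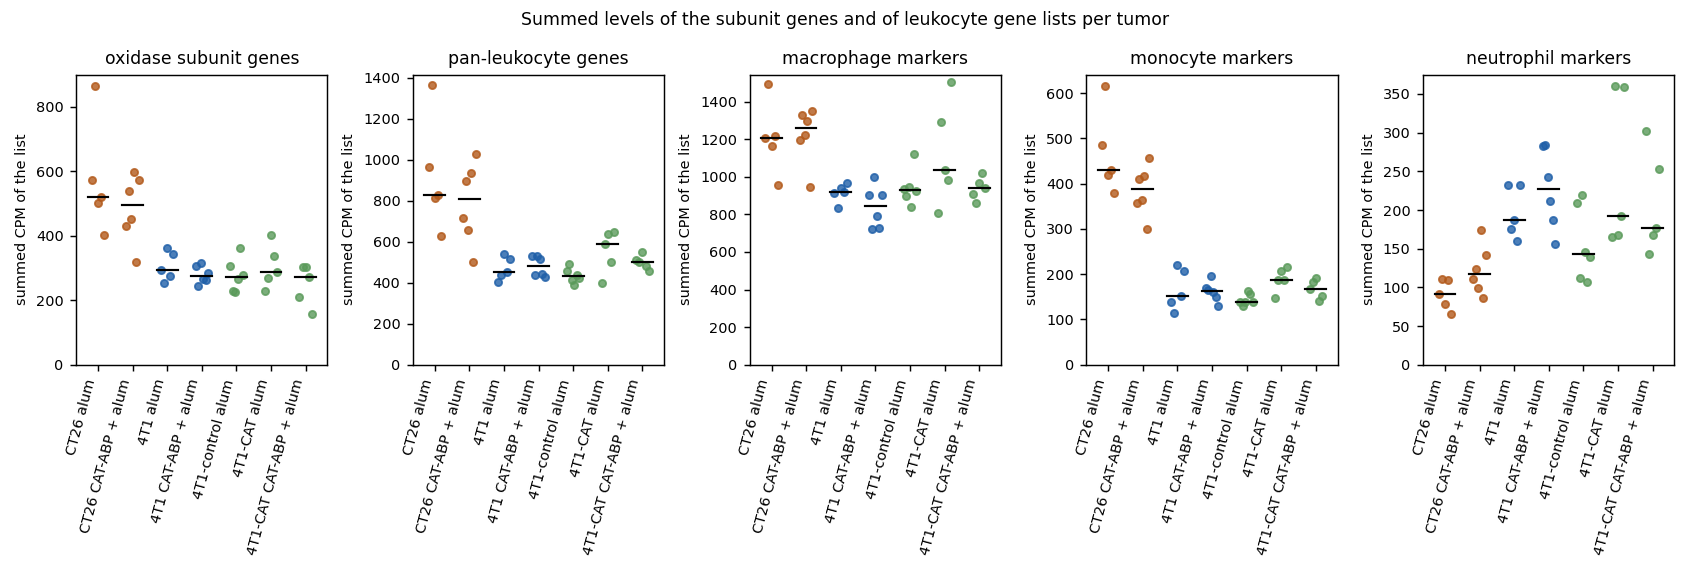
Summed CPM (y axis, linear from 0) of the 5 subunit genes and of 4 leukocyte gene lists in every tumor, by group (x axis); points are tumors and lines the group medians. The sum of the subunit genes lies between 318 and 865 CPM in CT26 tumors and between 158 and 404 CPM in 4T1-derived tumors, and the neutrophil list is the panel in which CT26 has the lower medians.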

How the data were processed

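RNA of 38 whole tumors was sequenced in 76 libraries. Reads were turned into gene values by the authors on Terra (Smart-seq2 pipeline). The deposited table holds expected counts that are not normalized, and 39.7% of its non-zero values are not whole. Whether unique molecular identifiers were collapsed, and the strand setting of the counting, are not given in the sources used here. The authors left out some technical replicates for low depth and did not name them, so that all 76 libraries were used. The sample labels give the days of treatment and harvest used here, and the study's text sets each step a day later.

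The expected counts were added over the 2 technical libraries of each tumor and then rounded, so that a tumor is the replicate, and tumors held 493044 to 9077549 counts. The quasi-likelihood test of edgeR 4.0.16 (R 4.3.3) was run after its filterByExpr filter and TMM scaling, each comparison fitted on its own groups alone, with Benjamini-Hochberg adjustment over all genes tested and a threshold of 0.05. The SE is the log2 fold change divided by the square root of F. Log2 CPM used a prior count of 2, TMM factors over all 38 tumors and, for single genes, two-sided exact permutation tests, whose smallest p is 0.0022 for 6 against 5 or 6 tumors and 0.0079 for 5 against 5, and 95% intervals by inversion of the test. P-values measure the spread between these tumors.

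The 5 genes and all lists were chosen with earlier results of these data known. Named from the 4 oxidase-related lists were up to 5 genes per direction and comparison with the smallest adjusted p; from marker lists, the 3 most abundant genes and defining markers near 0; and for each subunit the 5 genes of highest r. Spi1, Csf3r and Mmp9 were named outside that rule, and some genes that the rule names are not reported here. Alternatives were DESeq2 1.42.0, relative log expression (RLE) normalization, other filters, 1 model over all groups, blocks, single technical libraries, low-depth libraries left out and each tumor left out. Sequences are from RefSeq.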

Additional observations from a re-analysis of the deposited data

Results flagged for a closer look

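Among 35 sets of tumors, 5 genes in each of 7 groups, 1 held a tumor far from the others of its group by Dixon's test, which chance gives in about 1 of 20 sets. Ncf1 in 4T1-control alum replicate 2 was at 2.19 CPM, and the other 5 tumors of the group were between 5.72 and 9.09 CPM. That tumor had the lowest total of the series, 493044 counts, and its Ncf1 value rests on 1 count. Without it the log2 fold change of Ncf1 for 4T1-control against 4T1 was -0.69 (adjusted p 0.19). A part of depth in this value was not tested.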

How the results depend on the processing

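The 5 genes kept their number of calls in most settings. Cybb, Cyba and Rac2 were the 3 genes called in both comparisons of 4T1 with CT26, and the count was 3 or 4 under each alternative and 3 or 4 with each tumor left out in turn. It was 0 in each of the catalase comparisons under each alternative, and 1 for 4T1-control against 4T1 with no filter on low counts. Over the 5 4T1-derived groups it was 1 with DESeq2, with no filter on low counts and with technical library 2 alone, in place of 0. The number of correlated pairs was 4, but 1 with technical library 1 alone, 7 with technical library 2 alone, 2 within CT26 tumors and 3 within 4T1-derived tumors; without 1 tumor it was 4 or 5. Counts over all genes moved by more than 1.5 times in several settings: from 0 to 249 (DESeq2) for EC CAT in 4T1-CAT, from 3 to between 0 and 532 for both catalases (575 without 4T1-control alum replicate 3 and 131 without replicate 2), from 0 to 131 (no filter) for IC CAT, from 0 to 130 (no filter) for 4T1-control against 4T1, from 53 to between 0 (pool as a block) and 435 (no filter) over the 5 4T1-derived groups, and from 5434 to 2849 and from 5928 to 3559 (technical library 2 alone) for 4T1 against CT26 under alum and under CAT-ABP + alum.

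Signs turned only for log2 fold changes that did not pass the threshold. With technical library 1 alone, the log2 fold changes that changed sign were Cyba 0.039 and Rac2 0.031 for EC CAT in CT26, Rac2 0.016 for EC CAT in 4T1, Ncf4 0.076 for IC CAT in 4T1, Cybb 0.060 for EC CAT in 4T1-CAT, Cyba -0.25 and Rac2 0.022 for both catalases, Cyba 0.20 and Ncf4 -0.080 for 4T1-control against 4T1 and Ncf1 -0.089 and Rac2 -0.00084 for the EC CAT effect in 4T1 less that in CT26. With the replicate block, the log2 fold changes that changed sign were Ncf4 -0.058 for EC CAT in CT26, Ncf1 0.017 and Rac2 0.018 for EC CAT in 4T1, Cybb 0.0031 for IC CAT in 4T1 and Cyba 0.0051 for EC CAT in 4T1-CAT. With technical library 2 alone, the log2 fold changes that changed sign were Ncf4 -0.11 for EC CAT in CT26, Cybb 0.088 and Ncf1 0.35 for EC CAT in 4T1, Cybb 0.031 and Ncf4 0.041 for IC CAT in 4T1, Cyba -0.13 for both catalases, Ncf4 0.087 for 4T1 against CT26 under alum, Cybb 0.073 for 4T1-control against 4T1, Ncf4 0.21 for 4T1-CAT against 4T1 and Cybb -0.41 and Ncf4 0.13 for the EC CAT effect in 4T1-CAT less that in 4T1. With the pool as a block, the log2 fold changes that changed sign were Ncf1 0.099 and Rac2 0.27 for EC CAT in 4T1 and Ncf4 -0.028 for 4T1-control against 4T1. Within the shared pool (added after seeing the data), the log2 fold changes that changed sign were Ncf1 0.10 and Rac2 0.27 for EC CAT in 4T1. With no filter on low counts, the log2 fold changes that changed sign were Cyba 0.019 for EC CAT in 4T1-CAT and Ncf4 0.013 for 4T1 against CT26 under alum. Leaving out each tumor in turn, the log2 fold changes that changed sign ranged as follows for EC CAT in CT26: Cyba -0.12 to 0.040, Ncf4 -0.049 to 0.13 and Rac2 -0.15 to 0.044. For EC CAT in 4T1 the ranges were Cyba -0.0062 to 0.20, Ncf1 -0.076 to 0.049 and Rac2 -0.11 to 0.11. For IC CAT in 4T1 the ranges were Cybb -0.15 to 0.020 and Ncf4 -0.22 to 0.10. For EC CAT in 4T1-CAT the ranges were Cybb -0.17 to 0.088 and Cyba -0.12 to 0.11. For both catalases the ranges were Cybb -0.22 to 0.028 and Rac2 -0.17 to 0.034. For 4T1 against CT26 under alum the ranges were Ncf4 -0.13 to 0.10. For 4T1 against CT26 under CAT-ABP + alum the ranges were Ncf1 -0.31 to 0.00011. For 4T1-control against 4T1 the ranges were Cybb -0.21 to 0.037 and Ncf4 -0.044 to 0.20. For 4T1-CAT against 4T1 the ranges were Cybb -0.22 to 0.039 and Ncf4 -0.18 to 0.13. For the EC CAT effect in 4T1 less that in CT26 the ranges were Rac2 -0.071 to 0.15. For the EC CAT effect in 4T1-CAT less that in 4T1 the ranges were Cybb -0.062 to 0.20, Cyba -0.21 to 0.032, Ncf1 -0.40 to 0.0046 and Ncf4 -0.23 to 0.13.

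Few same-numbered tumors deviated together: of the 5 or 6 pairs in a comparison, between 0 and 2 had a correlation over 0.1, the highest being 0.40. So few pairs cannot decide whether the numbers pair the tumors, and the tests treat them as unpaired. With the replicate block the members called were 0 in each catalase comparison, 3 for 4T1 against CT26 under alum and 4 under CAT-ABP + alum. Depth limits Ncf1 most, with 1 to 214 counts per tumor, and 1 count is the whole of its lowest value. Intervals cover the spread between tumors and not counting error apart from it. The pool as a block could not be fitted where each group lies in its own pool or in 1 pool.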
